A study of Mus musculus with 17 samples.

Results

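The nuclear genes for mitochondrial ribosomal proteins were compared among 4 populations of sorted mouse testis germ cells. Members were the rows whose Entrez gene number maps to a mouse symbol that begins with Mrpl or Mrps and a number. This gave 78 of the 24013 rows, 49 for the large subunit and 29 for the small subunit by the letter in the symbol, and all 78 passed the filter on low counts. The table held read counts per gene from 17 libraries. All mice carried the Tert-Tomato/+ reporter on the B6/J X B6/N mixed background, so every group was sorted by a reporter for Tert, the gene of the catalytic subunit of telomerase. GFRA1pos (n = 4) was Tert-high, Kit-negative adult cells with the GDNF receptor GFRα1. GFRA1neg (n = 4) was the adult Tert-high, Kit-negative cells without it. KITpos (n = 5) was adult Tert-high cells with the KIT receptor, which marks differentiating spermatogonia. P6gonocyte (n = 4) was cells of neonates at postnatal day 6 sorted for the Tert reporter and an OCT4-GFP signal. The genotype label of this last group names only Tert-Tomato/+, so the origin of the GFP is not given. Nothing in the labels says that replicates came from separate mice, so p-values measure the spread between these libraries, which may be technical. Age and the sort differ together between P6gonocyte and the adult groups and cannot be told apart.

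The mitochondrial ribosome (mitoribosome) sits inside mitochondria and makes the few respiratory-chain proteins that mitochondrial DNA encodes. Its RNAs come from mitochondrial DNA, while all of its proteins are encoded in the nucleus, made in the cytosol and imported. Its small subunit reads the messenger RNA and its large subunit joins the amino acids. Of the 78 members, 46 have a counterpart in bacterial ribosomes and 31 are special to mitochondria. The remaining one, Mrps36, is a component of the oxoglutarate dehydrogenase complex in spite of its symbol. Mrps30 and Mrps18a carry small-subunit symbols but are built into the large subunit.

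The libraries held 5178352 to 12641907 counts. In the adult groups the sorting markers followed the labels. Kit had 353 ± 76.3 CPM in KITpos (SD, n = 5) against 17.6 ± 3.75 CPM in GFRA1pos (SD, n = 4). Gfra1 had 390 ± 28.9 in GFRA1pos against 22.8 ± 3.31 in GFRA1neg (SD, n = 4 each). P6gonocyte, whose label names neither receptor, held both transcripts, with 188 ± 29.4 CPM of Kit and 145 ± 18.3 CPM of Gfra1 (SD, n = 4). CPM, the usual counts-per-million unit, are relative here to library sizes scaled by the trimmed mean of M-values. Summed levels of 4 germ cell markers (Ddx4, Dazl, Zbtb16 and Sall4) were 792 to 903 CPM in the KITpos libraries and 1100 to 1810 CPM in all others. Whether this difference reflects the share of germ cells or their stage was not tested. P6gonocyte replicate 2 stood apart from its group, with 222 CPM summed over 9 Sertoli cell markers against 67.5 to 78.1 in the other P6gonocyte libraries, and 5.53 CPM of Pou5f1 (the gene of OCT4) against 23.0 to 26.3. It was the highest P6gonocyte library for 64 of the 78 members, so sums, ratios and counts that involve P6gonocyte are also given without it. Spermatid transcripts (14 markers) summed to 198 to 3180 CPM in GFRA1pos, 831 to 4290 in GFRA1neg, 800 to 2480 in KITpos and 56.5 to 73.5 in P6gonocyte, where Prm1 and Smcp were at 0.

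Promoter sequences are shown first because some upstream letters, which the choice by symbol did not use, were more frequent in members than in other genes, although most members lack them: 24 of the 69 matched members held the ETS, NRF1 or YY1 letters described here. A RefSeq promoter (GRCm38.p6) was matched for 69 of the 78 members. In the 250 bases before the start, the letters CCGGAAG, the core bound by ETS factors such as GABPA (nuclear respiratory factor NRF2), stood on either strand in 17 of the 69 (24.6%), against 7.05% of all 27025 promoters and 12.6% of the 12164 promoters of tested genes. The letters GCGCATGCG, bound by the nuclear respiratory factor NRF1, stood in 7 of the 69 (10.1%), against 1.49% of all promoters and 2.83% of those of tested genes. For AAGATGGCG (YY1) the shares were 2.9%, 0.607% and 1.04%. The shares of other letters in members and in tested genes were: GGGCGG (SP1 box) 47.8% against 56.0%, CCAAT 36.2% against 37.1%, CACGTG (E-box) 7.25% against 8.35% and TATAAA 5.8% against 6.86%. A match is a description of letters, not a site.

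The stretches that follow run from 120 bases before the annotated start to the start. They were chosen among windows that touch no annotated exon: Mrps22 (chr9:98601680-98601799, minus strand) and Mrpl52 (chr14:54426789-54426908, plus strand) hold the ETS core and were higher in KITpos, Mrpl58 (chr11:115403632-115403751, plus strand) holds it and was not called there, and Mrps23 (chr11:88204268-88204387, plus strand) and Mrps24 (chr11:5707702-5707821, minus strand) were among the largest rises in KITpos and hold none of the ETS, NRF1 or YY1 letters. Capitals mark the ETS core on either strand.
Mrps22: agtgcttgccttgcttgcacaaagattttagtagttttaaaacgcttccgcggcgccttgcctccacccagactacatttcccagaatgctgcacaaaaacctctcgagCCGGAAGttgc
Mrpl52: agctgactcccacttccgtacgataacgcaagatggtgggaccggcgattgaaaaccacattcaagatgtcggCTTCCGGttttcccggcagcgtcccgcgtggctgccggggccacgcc
Mrpl58: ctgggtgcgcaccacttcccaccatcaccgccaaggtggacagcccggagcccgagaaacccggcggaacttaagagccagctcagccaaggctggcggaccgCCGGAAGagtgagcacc
Mrps23: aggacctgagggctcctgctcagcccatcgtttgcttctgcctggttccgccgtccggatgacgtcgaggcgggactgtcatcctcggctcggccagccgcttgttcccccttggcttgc
Mrps24: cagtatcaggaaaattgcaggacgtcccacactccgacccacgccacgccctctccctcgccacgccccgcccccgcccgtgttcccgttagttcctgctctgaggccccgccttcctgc

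The next 4 stretches of 30 bases surround the NRF1 letters, in capitals, upstream of Mrpl9 (chr3:94443299-94443328, plus strand), Mrpl22 (chr11:58171621-58171650, plus strand), Mrpl32 (chr13:14613041-14613070, minus strand) and Mrpl39 (chr16:84735349-84735378, minus strand). The first 3 genes were higher in KITpos than in GFRA1neg and the fourth was lower. In the stretches of both Mrpl9 and Mrpl39 the letters match NRF1 on both strands.
Mrpl9: ggcgcagctGCGCATGCGCggggtccttct
Mrpl22: gcctcggactGCGCATGCGtatagtcagcc
Mrpl32: gcggacttaaCGCATGCGCtcagcccgcgt
Mrpl39: aggagaggcGCGCATGCGCccccgcgtggc
Of the 48 matched members that were higher in KITpos than in GFRA1neg, 10 (20.8%) held the ETS core and 6 (12.5%) the NRF1 letters. Of the other 21 members, 7 (33.3%) held the ETS core and 1 (4.76%) the NRF1 letters. For the SP1 box the shares were 56.2% of the 48 and 28.6% of the 21. They were 33.3% and 42.9% for CCAAT, 6.25% and 9.52% for the E-box, 6.25% and 4.76% for TATAAA, and 2.08% and 4.76% for YY1. These differences were not tested.

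Levels differed widely between members. Per kilobase of coding sequence and averaged over the 17 libraries, Mrps14 (228 CPM per kb), Mrpl17 (202 CPM per kb) and Mrpl42 (189 CPM per kb) were the highest. Mrps34 was the lowest by far, with 4.17 CPM per kb, and the next lowest was Mrps28 with 19.0 CPM per kb. The order differed by group: Mrps14 was the highest in GFRA1pos, GFRA1neg and P6gonocyte, while in KITpos Mrpl42 (268.5 CPM per kb), Mrps16 (223.7 CPM per kb) and Mrps33 (220.6 CPM per kb) were. Mrps34 was the lowest in each group, and the next lowest was Mrps28 in the same 3 groups and Mrps27 in KITpos. Of the 78 members, 59 had their highest group mean in KITpos, 16 in P6gonocyte and 3 in GFRA1neg, and none in GFRA1pos. Without P6gonocyte replicate 2 these numbers were 60, 13 and 4, with 1 in GFRA1pos. The lowest mean was in GFRA1neg for 41, in GFRA1pos for 31, and in KITpos and P6gonocyte for 3 each.

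Summed over the large subunit, transcripts reached 1544 ± 77.8 CPM in GFRA1pos (SD, n = 4), 1514 ± 99.5 CPM in GFRA1neg (SD, n = 4), 2381 ± 304 CPM in KITpos (SD, n = 5) and 2019 ± 332 CPM in P6gonocyte (SD, n = 4). The small subunit summed to 748.3 ± 5.72, 744.5 ± 50.4, 1297 ± 167 and 1008 ± 141 CPM in the same order. Both sums were higher in every KITpos and P6gonocyte library than in any adult Kit-negative library, while GFRA1pos and GFRA1neg overlapped. In the large subunit KITpos and P6gonocyte overlapped, with 1924 to 2701 CPM against 1953, 2505, 1782 and 1835 CPM, and they did so with or without P6gonocyte replicate 2, at 2505. In the small subunit that library, at 1209 CPM, was above the lowest KITpos library (1047), and the other 3 (906 to 1005) were below it. Without replicate 2 the P6gonocyte sums were 1857 ± 87.5 CPM and 941.5 ± 55.1 CPM (SD, n = 3). Such sums are shares of the sequenced RNA, so fewer cells of a type and less RNA per cell cannot be told apart.

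**Figure D1:**
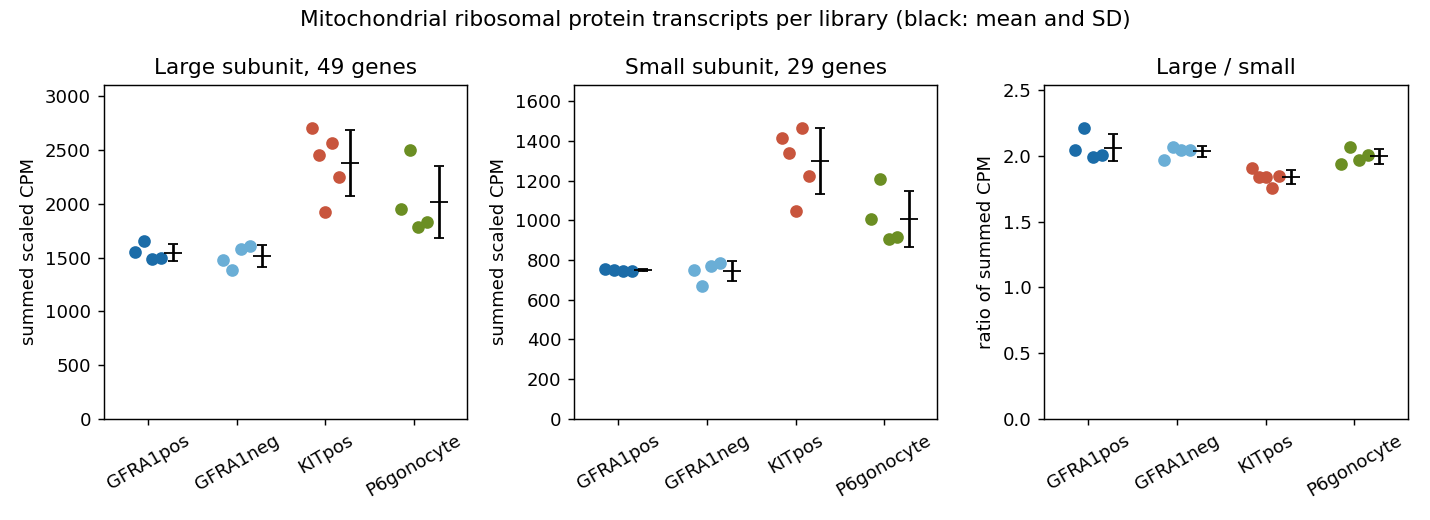
Summed scaled CPM of the 49 large-subunit genes (left) and 29 small-subunit genes (middle), and their ratio (right), with 1 point per library and the mean and SD in black. The KITpos and P6gonocyte libraries lie above all GFRA1pos and GFRA1neg libraries in both sums, and the KITpos libraries lie below all others in the ratio.

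The ratio between the subunits was lower in KITpos than in the other groups. The ratio of large to small subunit CPM was 2.06 ± 0.098 in GFRA1pos, 2.03 ± 0.0462 in GFRA1neg and 2.00 ± 0.0562 in P6gonocyte (SD, n = 4 each), and 1.84 ± 0.0533 in KITpos (SD, n = 5). On the log2 scale the 5 KITpos libraries ran from 0.814 to 0.933 and the other 12 libraries from 0.959 to 1.14, so they did not overlap. Without P6gonocyte replicate 2 its group ran from 0.959 to 1.01. The order held when members were placed by structure, with 0.94 to 1.07 in KITpos against 1.1 to 1.3 elsewhere, and for the difference in mean log2(CPM + 1), with 0.1 to 0.202 against 0.227 to 0.351. The subunits had nearly the same median coding length, 576 bases for the large and 588 for the small, but the part of coding length in the ratio was not tested. No p is given for these ratios because the members were chosen with earlier results known.

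GFRA1pos and GFRA1neg were compared first, to ask whether the stem-cell receptor GFRα1 divides the Tert-high, Kit-negative cells in these transcripts. Few differences passed the test. Only Mrpl58 rose, 1 of 78 members, where 7.3% of the 15451 tested genes were called higher and 6.84% lower in edgeR's quasi-likelihood test (Benjamini-Hochberg adjusted p under 0.05 over all genes). No member fell, and DESeq2 called 2 higher and 0 lower. The median log2 fold change of the 78 was 0.013, against -0.04 for all tested genes, and 14 members (17.9%) had an unadjusted p under 0.05 in either direction, against 26.6% of all tested genes. Mrpl58 encodes a peptidyl-tRNA hydrolase (also called ICT1) that sits in the large subunit and frees chains from stalled mitoribosomes. It had 23.1, 27.5, 24.8 and 21.5 CPM in the GFRA1pos libraries and 14.4, 13.3, 18.5 and 10.96 in the GFRA1neg libraries, which did not overlap. The log2 fold change was 0.76 (SE 0.232, adjusted p = 0.033), and the adjusted p lay between 0.055 and 0.11 when any of 6 of the 8 libraries was left out (GFRA1pos replicates 1, 2 and 3 and GFRA1neg replicates 1, 2 and 4). Mrpl58 shares exon sequence with the antisense gene Ict1os, and without known strand use their reads cannot be told apart. Mrpl45, which tethers the mitoribosome to the inner membrane, had a log2 fold change of -0.49 that did not pass (adjusted p = 0.061).

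KITpos was compared with GFRA1neg to follow the step from Kit-negative to Kit-positive cells. Most mitoribosomal genes rose: 53 of 78 were higher in KITpos and 2 were lower, where 22.1% of all tested genes were higher and 23.0% lower. By subunit, 33 of 49 large and 20 of 29 small members were higher, and 1 of each was lower. The median log2 fold change was 0.67 for the large and 0.92 for the small subunit, against 0.03 for all tested genes. In 43 members every KITpos library exceeded every GFRA1neg library, against 16.1% of tested genes, and 30 (38.5%) rose by more than 2-fold, against 10.6% of tested genes. Members with a bacterial counterpart rose in 32 of 46 cases and those special to mitochondria in 20 of 31, with medians of 0.88 and 0.65. By the letter in the symbol, this order stood in the small subunit. There 12 of 16 and 7 of 12 were higher, with medians of 1.14 and 0.623. In the large subunit 20 of 30 and 13 of 19 were higher, with medians of 0.659 and 0.715. The 12 include Mrps30 and Mrps18a, which sit in the large subunit and were not called (0.12 and 0.18). The split by symbol therefore does not place the order in the small subunit alone.

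**Figure D2:**
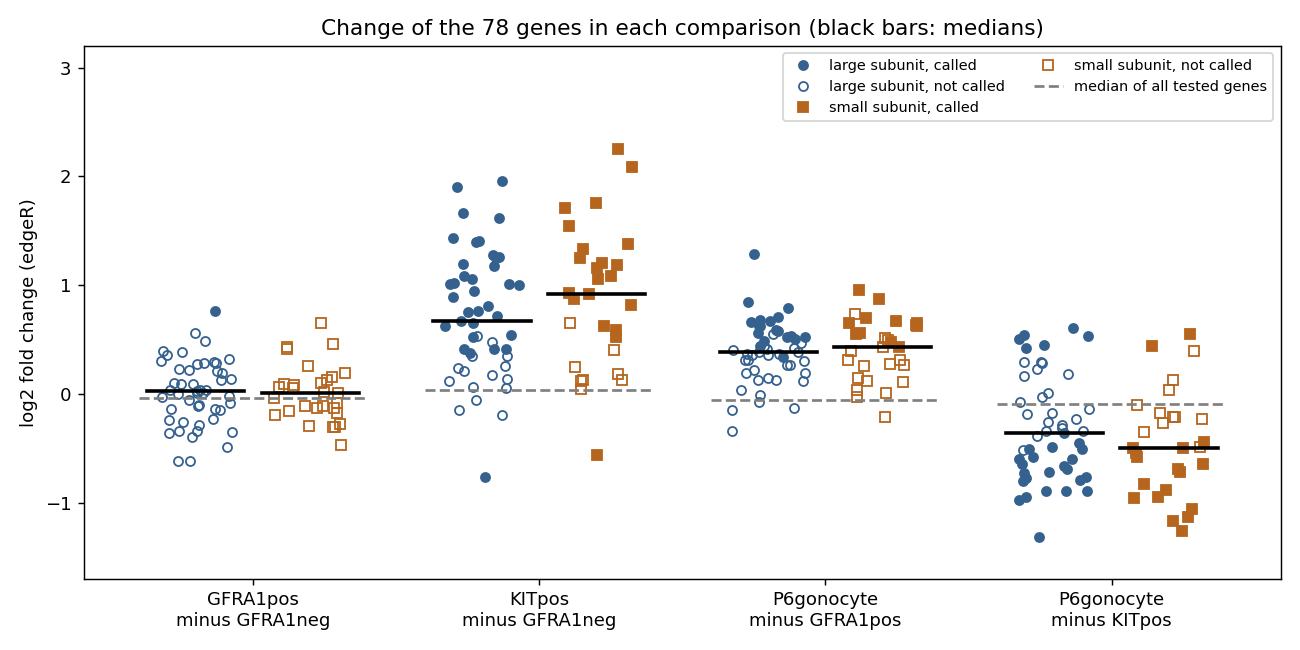
log2 fold change from edgeR of each of the 78 members in the 4 comparisons, large-subunit genes as circles and small-subunit genes as squares, filled where the adjusted p was under 0.05. Black bars are the medians of each subunit and the dashed line is the median of all tested genes. Both subunits shift upward in KITpos minus GFRA1neg (medians 0.67 and 0.92) and in P6gonocyte minus GFRA1pos (0.38 and 0.43), and downward in P6gonocyte minus KITpos (-0.36 and -0.50).

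The top 2 rises were those of the small-subunit genes Mrps28 and Mrps16. Mrps28, the mitochondrial relative of a bacterial small-subunit protein at the messenger RNA path, had 26.7, 17.1, 18.9, 21.1 and 17.1 CPM in KITpos and 4.89, 5.04, 3.93 and 3.06 CPM in GFRA1neg. That is a log2 fold change of 2.25 (SE 0.281, adjusted p = 2.8e-06). Mrps16, a protein that binds early as the small subunit is put together, had 107, 113, 66.5, 96.4 and 69.8 CPM in KITpos and 16.3, 22.1, 23.2 and 23.8 CPM in GFRA1neg. Even its lowest KITpos library was well above the highest GFRA1neg library. Its log2 fold change was 2.08 (SE 0.188, adjusted p = 5.3e-08). Mrps24, at the site where messenger RNA enters, had 53.6, 57.8, 24.0, 50.8 and 57.3 CPM in KITpos and 14.9, 13.1, 15.1 and 14.4 CPM in GFRA1neg (log2 fold change 1.76, SE 0.243, adjusted p = 8.9e-06). KITpos replicate 3 was far below the other 4 libraries for this gene but still above GFRA1neg. Mrps23, a protein special to mitochondria, had 36.0, 39.3, 22.6, 57.6 and 32.9 CPM in KITpos and 14.6, 11.3, 10.3 and 9.77 CPM in GFRA1neg. Its groups did not overlap, and it rose by 1.71 (SE 0.229, adjusted p = 6.4e-06).

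In the large subunit Mrpl13 and Mrpl18 rose most, and by more than Mrps24 and Mrps23. Mrpl13, a protein conserved from bacteria, had 99.1, 77.6, 63.0, 93.5 and 74.5 CPM in KITpos against 21.8, 19.5, 21.6 and 21.1 CPM in GFRA1neg (log2 fold change 1.96, SE 0.158, adjusted p = 1.4e-08). Mrpl18, of the central protuberance at the top of the large subunit, had 122, 92.0, 85.1, 112 and 115 CPM in KITpos against 26.6, 29.1, 31.1 and 25.7 CPM in GFRA1neg (log2 fold change 1.90, SE 0.144, adjusted p = 6.6e-09). For both genes the KITpos libraries stayed far above the narrow GFRA1neg range.

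Members that rose were found in every functional region that was grouped. The regions were grouped after values were seen and are small. Of all 78 members 67.9% were higher, and of all tested genes 22.1%, so the counts by region are a description and single out no region. At the stalk, which recruits the translation factors, Mrpl10, Mrpl11 and Mrpl12 all rose, with log2 fold changes of 0.54, 1.18 and 1.20. Mrpl12, which also binds the mitochondrial RNA polymerase, had 55.0, 46.6, 35.7, 45.9 and 32.7 CPM in KITpos against 16.7, 19.6, 18.7 and 20.2 CPM in GFRA1neg. Mrpl11, at the base of the stalk, had 49.3, 64.6, 36.4, 44.4 and 54.0 CPM against 19.1, 22.7, 18.8 and 27.3 CPM. The lowest KITpos library stood above the highest GFRA1neg library for both. Of the 6 members of the central protuberance, 5 rose (median 0.62) and Mrpl58 did not pass (0.35, adjusted p = 0.22). At the exit of the peptide tunnel, 4 of 5 rose (median 0.63) and Mrpl45 did not (-0.19, adjusted p = 0.35). In the head of the small subunit, 6 of 8 rose (median 0.84), among them Mrps7, with a log2 fold change of 0.93. Mrps12, at the decoding centre, had 15.3, 33.7, 27.8, 27.8 and 23.4 CPM in KITpos and 4.61, 9.36, 13.2 and 13.7 CPM in GFRA1neg, a wide spread within both groups but no overlap. It rose by 1.33 (SE 0.31, adjusted p = 0.0017). Mrps30 and Mrps18a, the members with small-subunit symbols that sit in the large subunit, did not pass (0.12 and 0.18). Mrps36 rose by 0.92 (adjusted p = 0.00042), but under a correction for coding length its log2 fold change was 0.33 (adjusted p = 0.12).

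Mrpl39 and Mrps27 went the other way. Mrpl39, a large-subunit protein special to mitochondria, had 47.6, 40.4, 44.5, 41.8 and 35.5 CPM in KITpos and 66.6, 73.2, 79.3 and 67.2 CPM in GFRA1neg, with no overlap (log2 fold change -0.77, SE 0.155, adjusted p = 0.00046). Mrps27, an RNA-binding protein of the pentatricopeptide repeat family, had 18.2, 26.8, 24.9, 15.0 and 24.2 CPM in KITpos and 32.5, 29.7, 34.3 and 32.9 CPM in GFRA1neg, again with no overlap (log2 fold change -0.56, SE 0.17, adjusted p = 0.011). The smallest differences were those of Mrps5 (0.04) and Mrpl27 (-0.05), the latter a protein beside the catalytic centre of the large subunit.

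**Figure D3:**
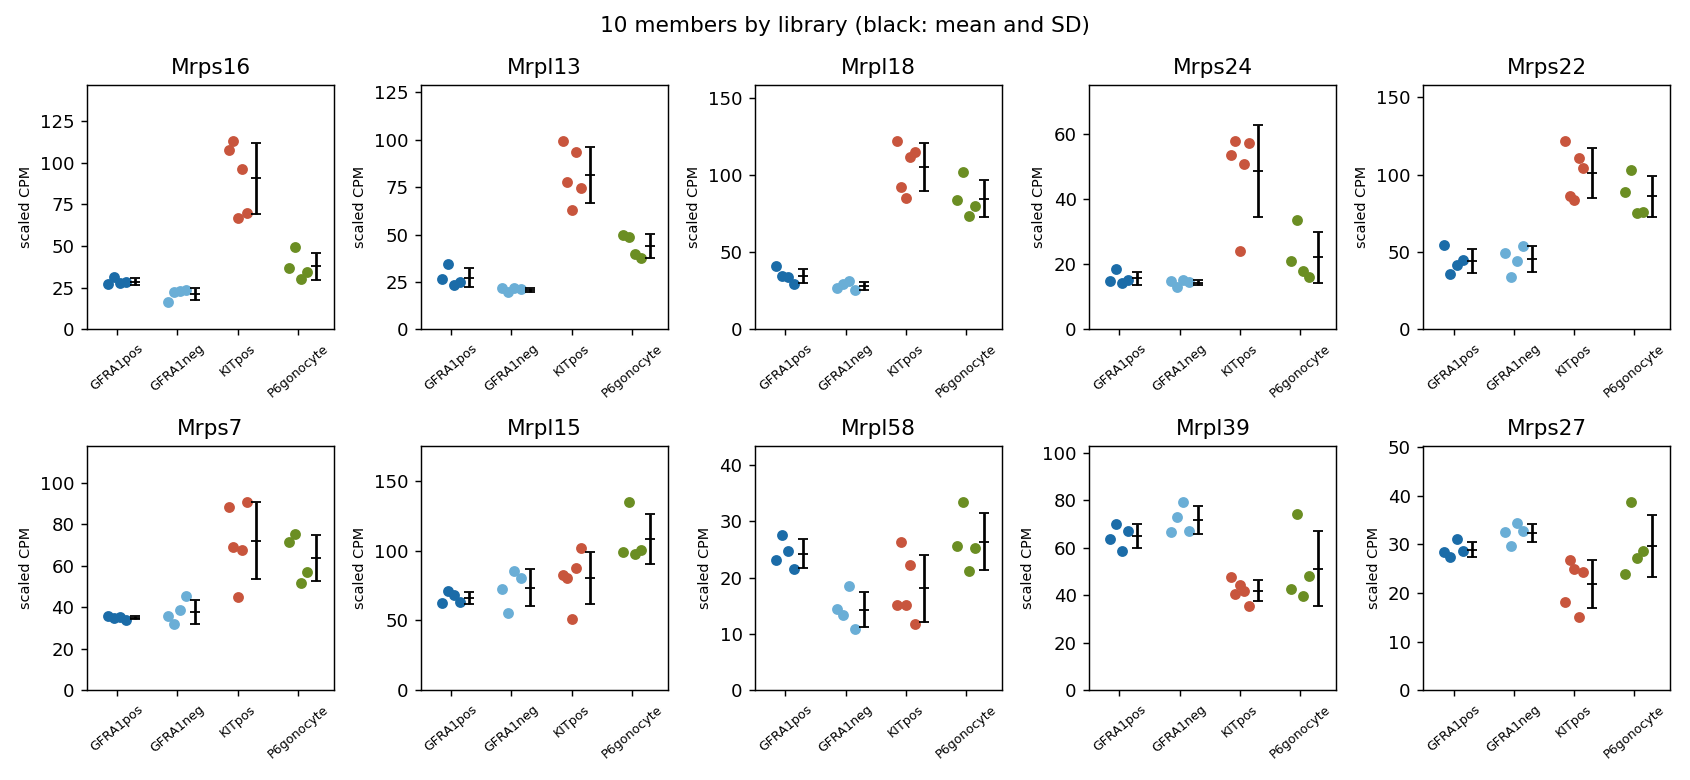
Scaled CPM of 10 members in each library, 1 point per library, with the mean and SD in black. Mrps16, Mrpl13, Mrpl18, Mrps24, Mrps22 and Mrps7 are high in KITpos, Mrpl39 and Mrps27 have their lowest group mean there, and P6gonocyte replicate 2 is the highest P6gonocyte library for 9 of the 10 genes, all but Mrpl13.

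Coding length moved with this comparison. Members are short, with a median coding length of 582 bases against 1398 for all tested genes with a length. Among all tested genes of up to 450 bases the median log2 fold change was 0.66 and 47.6% were higher in KITpos, and above 2000 bases the median was -0.17 and 15.7% were higher. Within each class below 1200 bases the members stood above all genes: 17 of 23 were higher with a median of 1.06 up to 450 bases, 23 of 28 with a median of 0.97 between 450 and 750 bases (all genes 0.35 and 33.4%), and 13 of 23 with a median of 0.52 between 750 and 1200 bases (all genes 0.09 and 23.7%). None of the 4 longer members rose. With the length trend of each library removed, 41 members were higher and 3 lower (Mrpl39, Mrps27 and Mrpl27), and the members' median was 0.46 against 0.10 for all genes. Germ cell markers gave 1 higher and 2 lower of 4, with the sums above. Markers of Leydig cells also moved: 6 of 7 tested were higher in KITpos, with summed levels of 23.0 to 105 CPM against 9.77 to 26.9 in GFRA1neg. Their part in the result was not tested. Without the 4 libraries highest in spermatid transcripts, 45 members were higher and 2 lower. The members' median in that fit was 0.65, against 0.09 for all its tested genes.

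**Figure D4:**
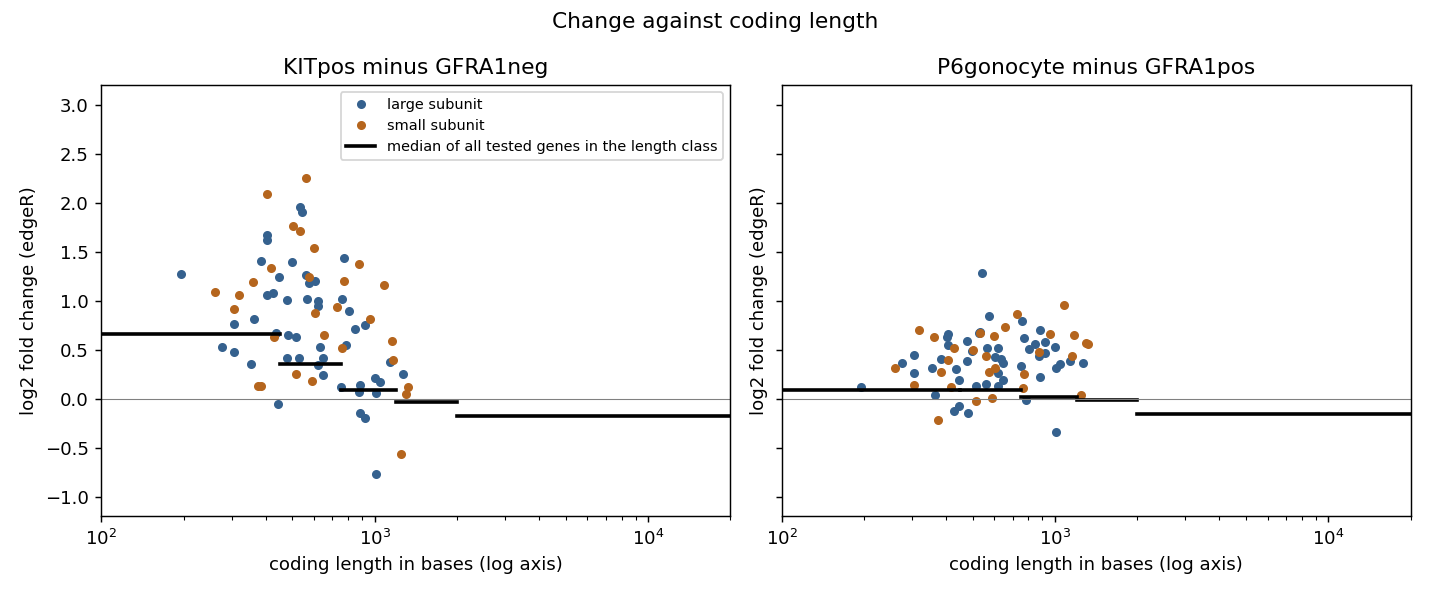
log2 fold change of each member against its coding length on a log axis, for KITpos minus GFRA1neg (left) and P6gonocyte minus GFRA1pos (right). Black bars are the medians of all tested genes in 5 length classes, which fall from 0.66 to -0.17 on the left and from 0.09 to -0.16 on the right.

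Neighbouring genes gave a comparison within the genome. For 26 members the annotation places the start of a protein-coding gene on the other strand close by, head to head, so that both genes leave from 1 stretch of DNA. Of these members, 18 were higher in KITpos than in GFRA1neg, while 8 of the 26 partners were higher and 8 lower. Of all tested genes, 22.1% were higher and 23.0% lower. The partners that rose include Mrpl46 and Mrps11, which are themselves members, so the partner count is not one of outside genes alone. For 7 members the partner rose too (Mrpl46 and Mrps11, which face each other, count once each), among them Mrpl49 (log2 fold change 1.39) with Fau (1.26), whose product includes a cytosolic ribosomal protein, Mrpl32 (1.26) with the proteasome subunit Psma2 (0.74), and Mrpl46 (0.72) with Mrps11 (1.24). For 4 members that rose the partner fell, the widest gap being that of Mrpl41 (1.67) with Pnpla7 (-1.59, adjusted p = 2.4e-08). The others were Mrpl50 with Zfp189, Mrps18b with Ppp1r10 and Mrps7 with Gga3. Of the 52 members without such a partner, 35 were higher. These pairs were singled out after their values were seen.

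Exon overlap bears on some counts. For 26 members the annotation has exon sequence shared with another gene. Of the 52 without such overlap, 37 were higher in KITpos (71.2%, against 67.9% of all members and 22.1% of tested genes). Mrpl9 overlaps the spermatid gene Oaz3 on the other strand. Mrpl9 had 19.4 to 26.2 CPM in P6gonocyte, where Oaz3 had 2.07 to 4.12 CPM, and 15.8 to 17.2 CPM in GFRA1neg, where Oaz3 had 41.7 to 302 CPM. In KITpos Mrpl9 had 27.2 to 32.6 CPM and Oaz3 45.2 to 173 CPM, and in GFRA1pos 15.0 to 19.3 CPM and 5.41 to 166 CPM. The part of Oaz3 reads in the Mrpl9 counts was not tested.

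P6gonocyte was compared with GFRA1pos to set the neonatal germ cells beside the adult cells with the stem-cell receptor. Again more members were higher than lower: 31 of 78 rose and none fell, where 17.3% of tested genes were higher and 21.9% lower. The 31 were 19 of 49 large and 12 of 29 small members. The median log2 fold change was 0.38 for the large and 0.43 for the small subunit, against -0.05 for all tested genes. In 35 members every P6gonocyte library exceeded every GFRA1pos library, against 18.6% of tested genes. An unadjusted p under 0.05 in either direction was reached by 42 (53.8%), against 48.2% of all tested genes, and DESeq2 called 30 higher and 0 lower. Without P6gonocyte replicate 2, 20 members were higher (13 large and 7 small), against 14.9% of tested genes, and 1 was lower, Mrpl39, which was named after its values were seen. Without the 4 libraries highest in spermatid transcripts, 17 were higher and none lower, and this removes GFRA1pos replicates 2 and 4. The members' median in that fit was 0.475, against -0.0062 for all its tested genes.

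Mrpl18 had the largest log2 fold change, with 83.9, 102, 73.4 and 79.7 CPM in P6gonocyte against 40.7, 34.8, 33.7 and 29.6 CPM in GFRA1pos (log2 fold change 1.29, SE 0.145, adjusted p = 8.7e-06). The groups were far apart, and it was the only member called above 2-fold in this comparison (1.28% of members, against 4.93% of all tested genes). Mrps22, a small-subunit protein special to mitochondria, had 89.0, 103, 75.3 and 76.0 CPM against 54.6, 35.9, 41.4 and 45.1 CPM (log2 fold change 0.96, SE 0.171, adjusted p = 0.00034). Mrps7, which nucleates the head of the small subunit, had 71.2, 75.0, 51.8 and 56.8 CPM against 35.5, 34.9, 35.1 and 34.0 CPM (log2 fold change 0.87, SE 0.185, adjusted p = 0.0013). For both genes no P6gonocyte library fell into the GFRA1pos range. Mrpl11 rose by 0.84 and Mrpl47, at the tunnel exit, by 0.79 (adjusted p = 0.0024 and 0.0045). Mrpl15, a conserved protein in the core of the large subunit, had 99.0, 135, 97.6 and 100 CPM in P6gonocyte and 62.1, 71.3, 68.2 and 63.4 CPM in GFRA1pos. Replicate 2 was the high library, and the other 3 were also above every GFRA1pos library (log2 fold change 0.70, SE 0.178, adjusted p = 0.0045). Mrpl45 had 32.8, 51.3, 36.0 and 37.1 CPM in P6gonocyte and 27.1, 25.0, 26.9 and 26.2 CPM in GFRA1pos. It rose by 0.58 (adjusted p = 0.011), and without P6gonocyte replicate 2 by 0.43 with an adjusted p of 0.054. Mrps12 and Mrpl12 did not pass, with 0.12 (adjusted p = 0.8) and 0.42 (adjusted p = 0.066). The smallest differences were those of Mrps18a (0.01) and Mrpl10 (-0.01).

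Members special to mitochondria rose in 14 of 31 cases and those with a bacterial counterpart in 17 of 46, and without P6gonocyte replicate 2 in 9 and 11. With all libraries and subunits by symbol, these were 7 of 19 and 12 of 30 in the large subunit, and 7 of 12 and 5 of 16 in the small subunit. In this comparison coding length moved less: all tested genes of up to 450 bases had a median of 0.09 and those above 2000 bases -0.16, and the members' counts rose to 46 higher and 0 lower with the length trend removed (members' median 0.55, all genes 0.13). Sertoli markers were higher in P6gonocyte for 6 of 7 tested, with summed levels of 67.5 to 222 CPM against 14.0 to 16.2, and all 14 spermatid markers were lower. Their part in the result was not tested.

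The comparisons of KITpos with GFRA1neg and of P6gonocyte with GFRA1pos share no library. Of the 53 members higher in the first and the 31 higher in the second, 23 were in both, which is 43.4% of the first list and 74.2% of the second, and 17 of the 78 were in neither. Since 67.9% of all 78 members were in the first list, the 74.2% is near the share over all members. Without P6gonocyte replicate 2, 16 of 20 were shared. With all libraries, the 8 higher in P6gonocyte alone were Mrpl15, Mrpl16, Mrpl19, Mrpl44, Mrpl45, Mrps30, Mrps5 and Mrps9. Of these, only Mrpl15, Mrpl19, Mrpl44 and Mrps30 remained without P6gonocyte replicate 2. Whether any gene's rise differs between the 2 comparisons was not tested.

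P6gonocyte against KITpos set the 2 groups with high mitoribosomal transcripts side by side. Here 39 of 78 members were lower in P6gonocyte and 8 higher, where 27.3% of tested genes were lower and 21.8% higher. Lower members were 23 of 49 large and 16 of 29 small, with medians of -0.36 and -0.50 against -0.09 for all tested genes. Mrpl20, which binds early in large-subunit assembly in bacteria, had 23.5, 22.9, 18.7 and 19.5 CPM in P6gonocyte against 70.6, 58.8, 32.3, 56.1 and 45.0 CPM in KITpos (log2 fold change -1.31, SE 0.189, adjusted p = 2.6e-05). Mrps16 had 36.7, 49.7, 30.4 and 34.4 CPM against the KITpos values given above (log2 fold change -1.26, SE 0.181, adjusted p = 2.6e-05), and Mrps28 fell by 1.17 (adjusted p = 0.0015). None of these 3 genes overlapped between the groups. Mrpl14, Mrpl13, Mrps36 and Mrpl12 were lower by log2 fold changes of -0.98, -0.89, -0.89 and -0.80.

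Of the 8 members higher in P6gonocyte, Mrpl44, Mrpl1 and Mrpl16 did not overlap between the groups. Of all 78 members, 3 were higher without overlap, against 16.6% of tested genes. Lower without overlap were 10 of the 78, against 19.3% of tested genes. Mrpl44, a large-subunit protein with an RNase III fold, had 33.2, 31.1, 30.02 and 31.9 CPM in P6gonocyte against 26.6, 22.1, 20.8, 17.4 and 16.3 CPM in KITpos (log2 fold change 0.61, SE 0.152, adjusted p = 0.0029). Mrpl1, of the mobile stalk beside the exit site for tRNA, rose by 0.53 (adjusted p = 0.013), and Mrpl16 by 0.45 (adjusted p = 0.0063). These 3 were also the ones called higher without P6gonocyte replicate 2. Then 3 were higher and 43 lower (26 of 49 large and 17 of 29 small members), against 20.0% and 26.0% of tested genes. Mrpl4, Mrpl15, Mrpl58, Mrps14 and Mrps27 were the others of the 8, with log2 fold changes of 0.42 to 0.55. This comparison depended on length: with the length trend of each library removed, 17 members were higher and 10 lower. The members' median was then -0.04, against 0.05 for all genes, where it had been -0.446 in the uncorrected fit. In the uncorrected fit all tested genes of up to 450 bases had a median of -0.67, against the members' -0.66 in that class. Of the tested markers, 6 of 7 Sertoli markers were higher in P6gonocyte, and 14 of 14 spermatid and 4 of 7 Leydig markers were lower. Their part in the result was not tested.

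**Figure D5:**
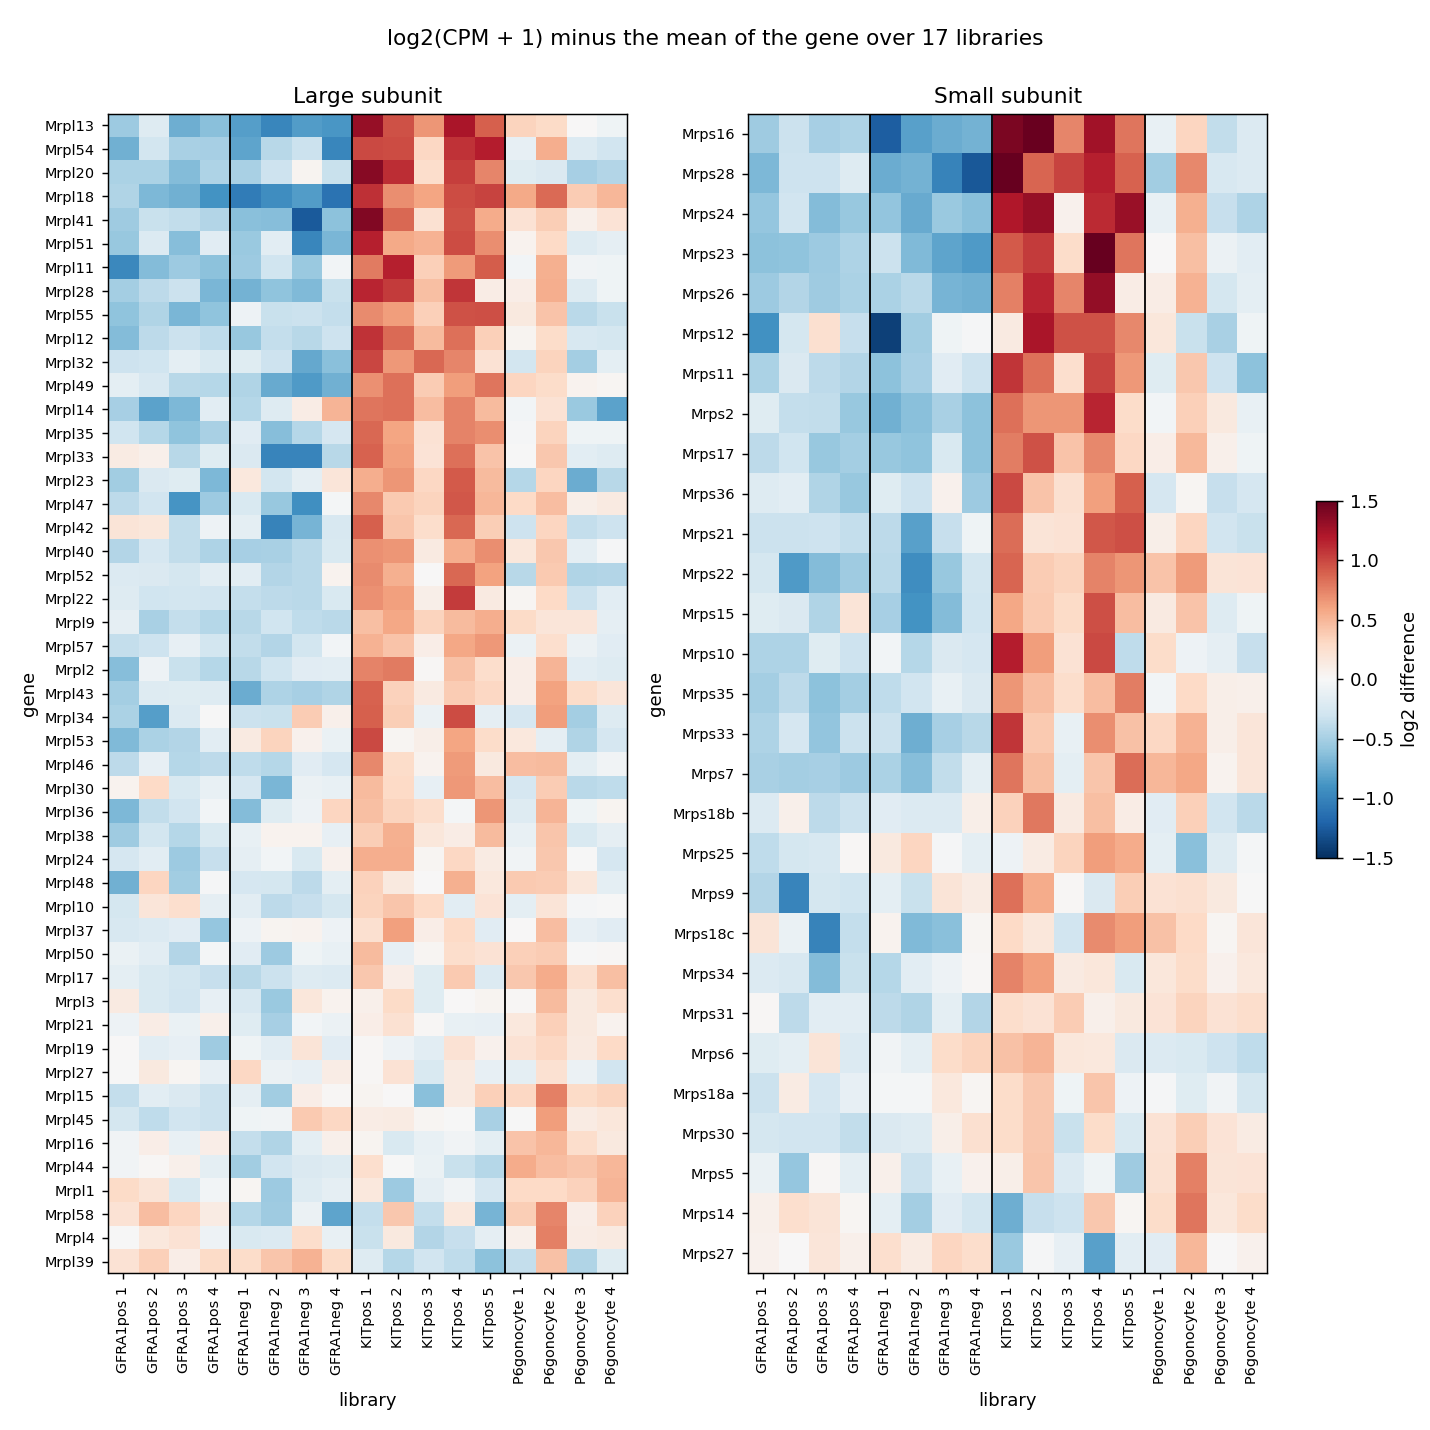
log2(CPM + 1) of each member minus its mean over the 17 libraries, with large-subunit genes on the left, small-subunit genes on the right, libraries in columns and genes ordered by their mean difference in KITpos. Most genes are high (red) in KITpos, a smaller set at the bottom including Mrpl44, Mrpl1 and Mrps14 is high in P6gonocyte, and P6gonocyte replicate 2 is redder than the rest of its group.

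Other genes of the mitochondrial expression system gave mixed counts, to be read against the 22.1% higher and 23.0% lower of all tested genes. In KITpos against GFRA1neg, 3 of 5 mitoribosome proteins without an Mrp symbol rose, Aurkaip1 (log2 fold change 1.34), Chchd1 (1.17) and Dap3 (0.38). Assembly and ribosomal RNA modification factors split, with 9 higher and 3 lower of 26 and a median of 0.02. The GTPase Noa1 rose by 1.01 and the pseudouridine synthase Trub2 fell by 0.86. Mitochondrial translation factors gave 2 higher and 3 lower of 14 (14.3% and 21.4%, median -0.08), no more than among all tested genes, and those that fell were the initiation factor Mtif2 (-0.55), the ribosome recycling factor Gfm2 (-0.40) and the elongation factor Gfm1 (-0.38). Of 8 genes for mitochondrial DNA maintenance and transcription, 3 were higher and 2 lower, with Tfam, which packages mitochondrial DNA, at 1.01 and Tfb2m, a transcription factor of mitochondria, at 0.81. Of 23 import genes 11 were higher and 1 lower (median 0.48), among them the outer-membrane receptor Tomm20 (1.69). Cytosolic ribosomal proteins had the highest share called, with 67 of 88 higher and 4 lower (median 0.99). Their median coding length was 454.5 bases.

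In P6gonocyte against GFRA1pos, where 17.3% of tested genes were higher and 21.9% lower, the counts higher and lower were 2 and 0 of the 5 other subunits, 5 and 3 of the 26 assembly factors, 4 and 0 of the 14 translation factors, 2 and 0 of the 8 DNA and transcription genes, 10 and 1 of the 23 import genes, and 42 and 1 of the 88 cytosolic ribosomal proteins. Import genes (43.5% higher) and cytosolic ribosomal proteins (47.7% higher) were the larger lists above that share, and assembly factors (19.2% higher) were near it. Without P6gonocyte replicate 2 the counts in the same order were 1 and 0, 4 and 4, 1 and 0, 1 and 0, 9 and 1, and 21 and 1. Of all tested genes, 14.9% were higher and 19.2% lower without that library. The translation GTPase Guf1 (0.93), the elongation factor Tufm (0.46) and the RNA-binding protein Lrpprc (0.42) were among those that rose, although 1 of the 14 translation factors was called without that library. In P6gonocyte against KITpos, 21.8% of tested genes were higher and 27.3% lower (20.0% and 26.0% without P6gonocyte replicate 2). Cytosolic ribosomal proteins gave 7 higher and 57 lower of 88 (5 and 64 without that library). Translation factors gave 4 higher and 0 lower of 14 (5 and 2 without it), and their 28.6% higher was near the share of all tested genes. In GFRA1pos against GFRA1neg, of the 26 assembly factors only Tfb1m, which methylates mitochondrial ribosomal RNA, was called, lower by 0.65 (adjusted p = 0.025), and of the 8 DNA and transcription genes only the mitochondrial RNA polymerase Polrmt was called, also lower (-0.68, adjusted p = 0.024). The 13 genes of mitochondrial DNA that encode proteins were not analysed here.

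The ratio of summed mitochondrial to cytosolic ribosomal protein CPM was 0.0771 ± 0.0037 in GFRA1pos, 0.0665 ± 0.00872 in GFRA1neg, 0.0719 ± 0.00436 in P6gonocyte (SD, n = 4 each) and 0.0598 ± 0.00374 in KITpos (SD, n = 5). KITpos had the highest mitoribosomal sum and the lowest ratio, with cytosolic ribosomal transcripts at 62010 ± 11300 CPM against 29800 ± 1760 CPM in GFRA1pos (SD). KITpos overlapped GFRA1neg in this ratio, with 0.0553 to 0.0633 against 0.057 to 0.0775, and lay below all GFRA1pos and P6gonocyte libraries. Without P6gonocyte replicate 2 the P6gonocyte ratio was 0.074 ± 0.00157 (SD, n = 3).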

How the data were processed

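Read counts per gene were deposited by the authors as 1 table of whole numbers, with no normalization that its values show. Per the submitters' processing notes, the genome build was mm9 and TopHat2 2.0.4 and Bowtie2 2.0.0-6 were among the tools. How reads were assigned to genes, and whether strand was used, is not given in the sources used here. Per the labels' protocols, RNA from sorted cells was amplified before sequencing, so counts are not independent molecules. The column GFPa1pos_1 was read as GFRA1pos replicate 1. Symbols were matched by Entrez number for 23930 rows, and the other 83 could not be members. Coding lengths came from GENCODE on GRCm38, used for lengths and neighbours only.

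edgeR 4.0.16 in R 4.3.3 fitted 15451 genes over 17 libraries with 1 mean per group, trimmed mean scaling and a filter on low counts. A call is a Benjamini-Hochberg adjusted p under 0.05 over all genes. The fit was tested on simulated data. DESeq2 1.42.0, limma 3.58.1, other scalings and filters, a replicate block, a length correction (lowess span 0.5) and left-out libraries were alternatives. Among these, the share of all tested genes called is given only for the fit without P6gonocyte replicate 2. Members and lists were chosen with earlier results of these data known, and the functional regions after values were seen. Rps19bp1 matched the cytosolic pattern but was left out as no ribosomal protein. Named per comparison were up to 6 of the largest called, non-overlapping changes in each direction, up to 3 against most, the 2 smallest, and 9 members with set roles.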

Additional observations from a re-analysis of the deposited data

Results flagged for a closer look

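Of 144 groups of 4 or 5 libraries checked, 7 held a library set off from the rest by more than the 95% limit of Dixon's test, which chance gives in about 1 of 20 groups. P6gonocyte replicate 2 was the high library for Mrpl11 (41.4 CPM, next 27.5), Mrpl15 (135 CPM, next 100) and Mrps5 (101 CPM, next 69.8). KITpos replicate 3 was low for Mrps24 (24.0 CPM, next 50.8) and KITpos replicate 5 for Mrpl45 (23.2 CPM, next 32.7). GFRA1pos replicate 3 was low for Mrpl20 (16.7 CPM, next 19.0). GFRA1neg replicate 1 had the lowest log2 ratio of large to small subunit in its group (0.975, next 1.04).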

How the results depend on the processing

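The count of members higher in GFRA1pos than in GFRA1neg was 1 and became 2 with relative log expression scaling, upper-quartile scaling, scaling without the most abundant row, no count filter, DESeq2, or only the 2 groups fitted, and 0 to 2 with 1 library left out. It was 0 without the 4 libraries highest in spermatid transcripts, an alternative chosen after seeing the data. The count lower was 0, became 1 when only the 2 groups were fitted, and was 0 to 1 with 1 library left out. For P6gonocyte minus GFRA1pos the count higher (31) was 20 to 33 and the count lower (0) was 0 to 1 with 1 library left out, and 17 were higher without the spermatid-rich libraries. For P6gonocyte minus KITpos the count higher (8) was 5 with only the 2 groups fitted, 17 with the length correction and 3 to 8 with 1 library left out, and the count lower (39) was 10 with the length correction. For KITpos minus GFRA1neg all alternatives stayed within 1.5 times the counts of 53 and 2. Placed by structure, the log2 ratio of large to small subunit was 1.19, 1.2, 1.01 and 1.13 in GFRA1pos, GFRA1neg, KITpos and P6gonocyte, and as a difference in mean log2(CPM + 1) it was 0.289, 0.278, 0.141 and 0.266.

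With the replicate number as a block, 3 and 1 members were higher and lower in GFRA1pos minus GFRA1neg, 52 and 2 in KITpos minus GFRA1neg, 35 and 0 in P6gonocyte minus GFRA1pos, and 7 and 38 in P6gonocyte minus KITpos. Deviations of same-numbered GFRA1pos and GFRA1neg libraries correlated at 0.436, 0.49, 0.293 and 0.0652, and 5 of 8 libraries correlated best with their own number, which is a hint of pairing in the data. The labels tie the numbers to no animal, batch or day and 1 of the 4 correlations was under 0.1, so the fit without the block was kept. Over 63 values of named genes, 1201 alternatives kept direction and call, 9 gained the call, 25 lost it and none reversed. Where the cause of a change is not in the alternative's construction, it was not tested.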
